A study of Homo sapiens with 6 samples.

Results

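The genes described here are the 4 tropomyosins (TPM1 to TPM4), 3 tropomodulins (TMOD1 to TMOD3) and 3 actins (ACTA2, ACTB and ACTG1), 10 of the 55765 gene names in the expression table. They were chosen by symbol, and with the knowledge that TPM2 and TPM4 were higher after EHMT2 knockdown, so their levels and differences are described without a test. All 10 were listed, 8 had a mean of at least 1 FPKM (fragments per kilobase of transcript, scaled to the mapped fragments of the library) over the libraries, and TMOD1 and TMOD2 did not reach it. RNA-seq was done on total RNA of SK-NEP-1 cells that had received either a small interfering RNA against EHMT2 (siEHMT2, 3 libraries) or a control small interfering RNA (siNC, 3 libraries). EHMT2 encodes a methyltransferase for lysine 9 of histone H3. The labels describe SK-NEP-1 as a Wilms tumor line from kidney; treatment time, siRNA sequence and the number of cultures behind each group are not stated there.

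Actin filaments are polymers of actin that grow mainly at the barbed end, and their other end is called the pointed end. Tropomyosins are coiled-coil dimers that lie end to end along the filament and govern which myosins, severing proteins and crosslinkers can reach it. Tropomodulins bind tropomyosin and actin at the pointed end and cap it. ACTB and ACTG1 encode the cytoplasmic beta and gamma actins of almost all cells, and ACTA2 the alpha actin of smooth muscle. Many actin and tropomyosin genes are known targets of the serum response factor SRF and its actin-sensing coactivators MRTF-A and MRTF-B, which bind DNA at a sequence called the CArG box.

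Promoter windows are shown for the tropomyosins that were higher, TPM2 and TPM4, and for both gamma actins, because the CArG box is the element through which this gene family is best known to be controlled. The windows run from 250 bases before to 50 bases after an annotated start and come from RefSeq (GRCh38.p14), another build than the hg19 named for the expression data. They are given 5′ to 3′ in the direction of the gene, in lower case with each CArG box in capitals.
TPM4, chr19:16067288-16067587, plus strand: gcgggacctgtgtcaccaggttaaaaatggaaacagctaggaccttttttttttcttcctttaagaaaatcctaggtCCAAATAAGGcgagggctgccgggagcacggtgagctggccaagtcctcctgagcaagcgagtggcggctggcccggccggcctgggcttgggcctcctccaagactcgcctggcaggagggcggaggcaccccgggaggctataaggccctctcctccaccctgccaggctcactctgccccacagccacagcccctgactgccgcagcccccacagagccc
TPM2, chr9:35689876-35690175, minus strand: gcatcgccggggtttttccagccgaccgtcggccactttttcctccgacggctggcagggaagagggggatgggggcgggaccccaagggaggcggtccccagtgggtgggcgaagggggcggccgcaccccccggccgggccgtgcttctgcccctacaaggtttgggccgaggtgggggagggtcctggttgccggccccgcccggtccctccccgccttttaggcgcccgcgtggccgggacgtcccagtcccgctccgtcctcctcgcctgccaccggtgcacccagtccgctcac
ACTG1, chr17:81512750-81513049, minus strand: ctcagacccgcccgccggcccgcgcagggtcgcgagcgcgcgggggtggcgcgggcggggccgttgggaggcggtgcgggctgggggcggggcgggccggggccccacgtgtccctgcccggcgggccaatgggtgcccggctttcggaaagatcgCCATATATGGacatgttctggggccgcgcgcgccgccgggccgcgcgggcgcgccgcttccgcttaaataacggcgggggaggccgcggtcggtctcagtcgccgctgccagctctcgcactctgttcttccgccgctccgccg
ACTG2, chr2:73892758-73893057, plus strand: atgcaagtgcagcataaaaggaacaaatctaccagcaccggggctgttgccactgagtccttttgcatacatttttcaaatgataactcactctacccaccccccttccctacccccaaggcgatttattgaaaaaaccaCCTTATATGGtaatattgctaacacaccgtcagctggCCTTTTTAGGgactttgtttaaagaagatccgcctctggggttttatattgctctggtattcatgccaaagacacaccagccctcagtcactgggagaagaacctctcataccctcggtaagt
The TPM4 window holds CCAAATAAGG, whose first base lies 173 bases before the start. The other windows of TPM4, not shown, hold no such letters. The expression table has no values per start, so which TPM4 start these cells used is not known. ACTG1 holds CCATATATGG, 94 bases before its start. ACTG2, the gamma actin of smooth muscle and not itself among the 10 genes, holds CCTTATATGG at 110 bases and CCTTTTTAGG at 73 bases. Neither TPM2 window holds the letters. Only the exact form CCWWWWWWGG, with W for A or T, was counted as a box. It reads as a box on both strands, so both were covered. An ACTA2 window holds CCCTATATGG and CCTTGTTTGG, which depart from that form and were not counted. Such near forms were not sought in the other windows. Of the 9 genes with a window (all but ACTB), 2 held a box of the exact form in at least 1 window, TPM4 and ACTG1. The same was true of 1.6% of the 27305 genes with a window, and of 1.29% of the 35116 windows. These matches describe letters only.

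The knockdown, the identity of the cells and the quality of the libraries bear on every value below. EHMT2 was at 7.61, 8.26 and 16.2 FPKM in siEHMT2 replicates 1, 2 and 3 and at 22.7 to 27.5 in siNC, without overlap (limma adjusted p = 0.0609, not past the threshold of 0.05). Summed FPKM ranged from 244702 to 272271 per library, and the depth in reads is unknown. siEHMT2 replicate 3 stood apart: its deviations from the gene means increased with transcript GC content (Spearman rho 0.573 across 11727 genes), against −0.339 to 0.111 in the other 5 libraries. SIX2 and PAX2, which mark nephron progenitors, were at no more than 0.234 and 0.119 FPKM in any library, and the summed level of the 8 nephron progenitor markers was 11.1 to 11.6 FPKM in siNC and 11.2 to 11.9 in siEHMT2. Markers of Ewing sarcoma were abundant, with NKX2-2 reaching 134.5 FPKM and CD99 70.9, and their sum over 8 genes was 251 to 282 FPKM in siNC and 242 to 275 in siEHMT2. The groups did not overlap for 1 of the 8 markers of each list, EYA1 higher and STEAP1 lower, beside 26.3% of all tested genes. SK-NEP-1 is known to carry the EWSR1-FLI1 fusion of Ewing sarcoma. The label of a Wilms tumor line was thus not borne out by these markers, and the line is called SK-NEP-1 below.

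In control cells the cytoplasmic actins stood far above all other genes of the set. In siNC, ACTB was at 792.5 ± 78.6 FPKM (SD, n = 3) and ACTG1 at 785 ± 96.9, and their ranges overlapped. TPM3 followed at 53.8 ± 1.68 and TPM4 at 23.2 ± 2.17. TMOD3, the tropomodulin made in most cell types, was at 12.03 ± 0.982, ACTA2 at 10.1 ± 1.56 and TPM2 at 8.53 ± 0.742 FPKM. The ranges of TMOD3 and ACTA2 overlapped, as did those of ACTA2 and TPM2. TPM1 was at 4.18 ± 0.137 FPKM, TMOD2, best known from neurons, at 0.569 ± 0.253, and TMOD1, best known from red cells and striated muscle, at 0.112 ± 0.0300. After EHMT2 knockdown the order differed at 3 places. ACTG1 stood before ACTB and TPM4 before TPM3, each pair with overlapping ranges, and TPM2 stood before TMOD3 and ACTA2 with no overlap.

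**Figure D1:**
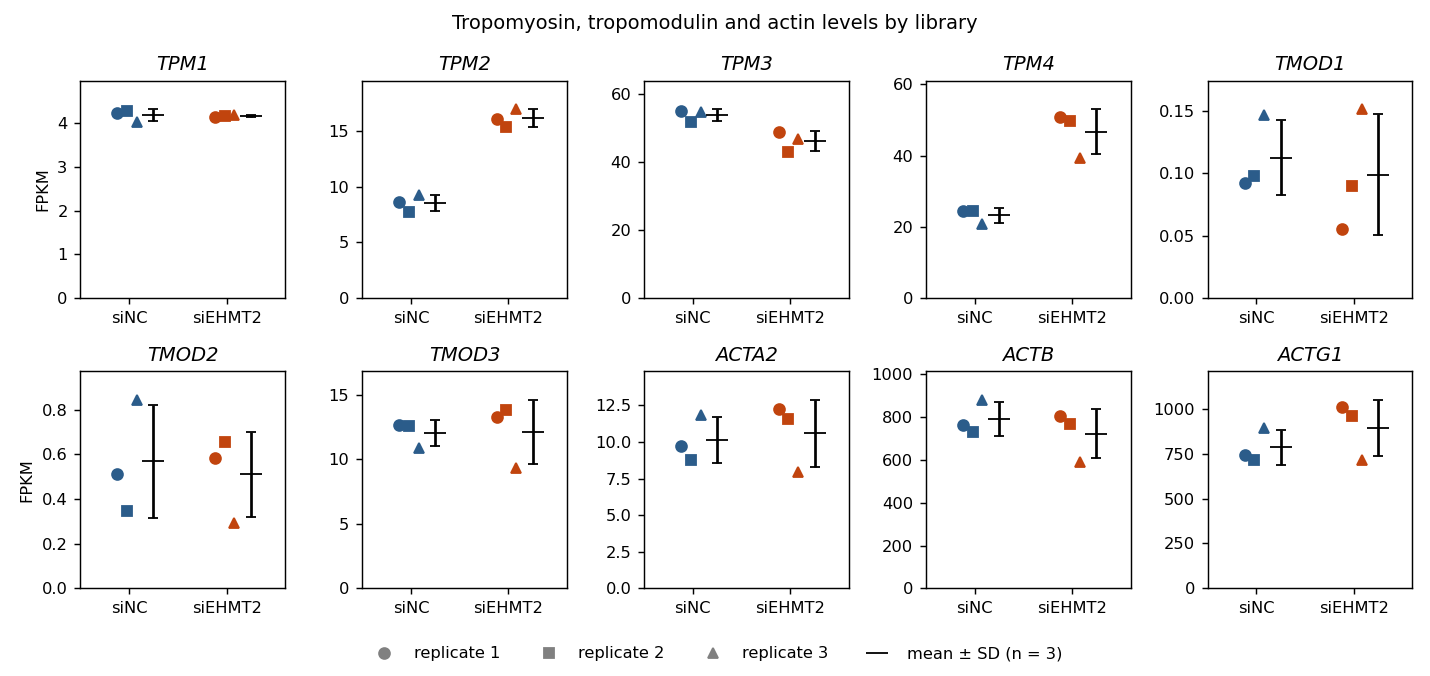
Level of each of the 10 genes in FPKM (vertical axes, each starting at 0) in the 3 siNC and 3 siEHMT2 libraries, with symbols for replicate numbers and bars for mean ± SD. TPM2 and TPM4 lie higher and TPM3 lower in all siEHMT2 libraries, while the groups of the other 7 genes overlap.

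TPM4, a tropomyosin made mainly outside muscle in human cells, was about 2-fold higher in siEHMT2. It was at 50.95, 49.6 and 39.4 FPKM in siEHMT2 replicates 1, 2 and 3 and at 24.4, 24.5 and 20.7 in siNC replicates 1, 2 and 3. Every siEHMT2 library lay above every siNC library, and the third library was the lowest in each group. The ratio of the group means was 2.01, and the difference in mean log2(FPKM + 1) was 0.97 ± 0.13 (SE). That difference lay above those of 99.8% of the 12859 genes with a mean of at least 1 FPKM. Nothing is read from this rank, since TPM4 was chosen with its rise in this contrast known. The difference ran from 0.89 to 1.09 over 16 other ways of processing or leaving out libraries. The RNA is from bulk cultures, so a change in the share of cells that make a transcript and a change in the amount per cell cannot be told apart.

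TPM2, the beta tropomyosin of muscle that is also made in non-muscle cells, was at 16.1, 15.3 and 16.95 FPKM in siEHMT2 replicates 1, 2 and 3. In siNC replicates 1, 2 and 3 it was at 8.60, 7.75 and 9.23 FPKM. Again the groups did not overlap, and here the third library was the highest in each group. The ratio of the means was 1.89 and the log2 difference 0.85 ± 0.10 (SE). TPM2 transcripts had a median GC content of 58.95%, against 47.9% for TPM4. After correction of each library for GC content the TPM2 difference was 0.74 and that of TPM4 remained 0.97.

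TPM3, which encodes slow-muscle and widespread cytoplasmic tropomyosins, was lower. It was at 48.8, 43.0 and 46.85 FPKM in siEHMT2 replicates 1, 2 and 3 and at 54.9, 51.8 and 54.5 in siNC. The groups did not overlap, with a log2 difference of −0.22 ± 0.09 (SE) and a ratio of means of 0.860. TPM1, the alpha tropomyosin, was nearly level: 4.14, 4.17 and 4.199 FPKM in siEHMT2 replicates 1, 2 and 3 and 4.235, 4.29 and 4.03 in siNC replicates 1, 2 and 3. Its groups overlapped and its log2 difference was −0.00 ± 0.10 (SE), from −0.04 to 0.01 over the alternatives. The table holds 1 value per gene, so the muscle and cytoplasmic isoforms of a tropomyosin gene, made from different promoters and exons, were not told apart.

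In all, the groups did not overlap for 3 of the 10 genes, TPM2 and TPM4 higher and TPM3 lower. They did not overlap for 26.3% of the 12859 tested genes, 14.6% higher and 11.7% lower. Nothing is read from the count of 3, since this contrast was known when the genes were chosen.

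FPKM is scaled to transcript length, so paralogs can be compared within a library, and such ratios do not depend on how libraries are scaled. The summed tropomyosin level was 120.0, 112 and 107 FPKM in siEHMT2 replicates 1, 2 and 3 and 92.2, 88.4 and 88.5 in siNC replicates 1, 2 and 3. TPM3 made up 59.6%, 58.7% and 61.6% of that sum in siNC replicates 1, 2 and 3, and 40.7%, 38.35% and 43.6% in siEHMT2. The share of TPM4 was 26.5%, 27.7% and 23.4% in siNC and 42.45%, 44.25% and 36.7% in siEHMT2. The share of TPM2 was 9.51 ± 0.842% in siNC and 14.3 ± 1.29% in siEHMT2 (SD, n = 3). TPM3 was thus the leading tropomyosin in all 3 siNC libraries. None of these shares of TPM2, TPM3 and TPM4 overlapped between the groups. The shares of a library add up to a whole, so higher TPM2 and TPM4, known when the genes were chosen, lower the other shares. The share of TPM1, whose level was nearly the same, was 4.67 ± 0.16% in siNC and 3.69 ± 0.23% in siEHMT2 (SD, n = 3), also without overlap. In siEHMT2 the ratio of TPM4 to TPM3 was 1.04, 1.154 and 0.840 in replicates 1, 2 and 3, so TPM4 led in replicates 1 and 2 and TPM3 in replicate 3. In siNC that ratio was 0.445, 0.473 and 0.380.

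The actins ACTB and ACTG1 showed overlapping levels but a shifted balance. ACTB was at 807, 769 and 593 FPKM in siEHMT2 replicates 1, 2 and 3 and at 764, 732 and 881 in siNC replicates 1, 2 and 3. ACTG1 was at 1008, 960.0 and 716 FPKM in siEHMT2 and at 745, 715 and 896 in siNC. For both genes siEHMT2 replicate 3 was the lowest of its group and siNC replicate 3 the highest, and the groups overlapped. The ratio of ACTG1 to ACTB, in contrast, was 1.25, 1.25 and 1.21 in siEHMT2 replicates 1, 2 and 3 and 0.975, 0.977 and 1.02 in siNC. The mean ratio was 1.235 ± 0.0237 against 0.9895 ± 0.0234 (SD, n = 3), without overlap. Taken singly, the log2 differences were 0.18 ± 0.16 for ACTG1 and −0.14 ± 0.15 for ACTB (SE). With siEHMT2 replicate 3 and siNC replicate 3 both left out, a choice made once the values were known, they were 0.43 and 0.07, so the sign for ACTB turned. After GC correction ACTG1 was at 0.07 and ACTB at −0.25. Over all alternatives ACTG1 ran from 0.07 to 0.43 and ACTB from −0.25 to 0.07.

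**Figure D2:**
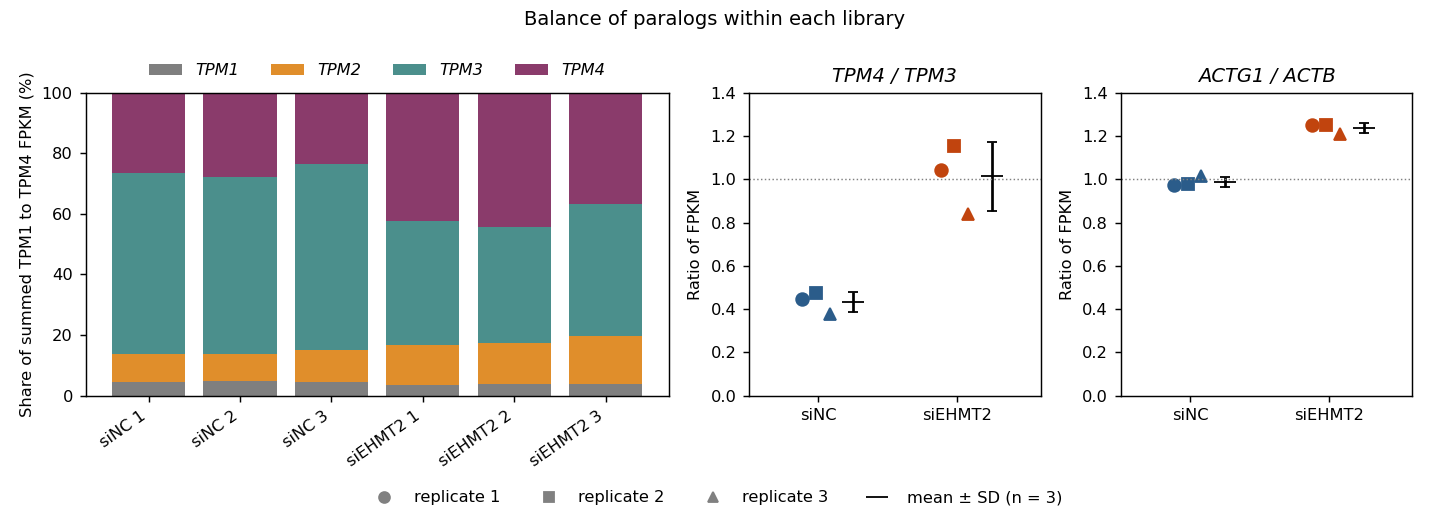
Left, share of each tropomyosin gene in the summed TPM1 to TPM4 FPKM of every library (stacked bars, percent). Middle and right, ratio of TPM4 to TPM3 and of ACTG1 to ACTB per library with mean ± SD and a dotted line at equal levels: TPM4 to TPM3 lies at 0.380 to 0.473 in siNC and 0.840 to 1.154 in siEHMT2, and ACTG1 to ACTB at 0.975 to 1.02 and 1.21 to 1.25.

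ACTA2, the smooth muscle actin, was at 12.25, 11.5 and 7.95 FPKM in siEHMT2 replicates 1, 2 and 3 and at 9.74, 8.79 and 11.8 in siNC replicates 1, 2 and 3. Its groups overlapped, and the log2 difference of 0.05 ± 0.17 (SE) ran from −0.06 to 0.33 over the alternatives. It followed the cytoplasmic actins from library to library. Over the 6 libraries, the deviations of log2(FPKM + 1) from the group means had a Pearson r of 0.997 between ACTA2 and ACTB, 0.996 between ACTA2 and ACTG1 and 0.999 between ACTB and ACTG1. Without removing the group means r was 0.863, 0.938 and 0.645 and Spearman rho 0.943, 0.886 and 0.771 for these pairs. The points share libraries, and the coding sequences of the actins are close to identical. No source used here states how reads that fit several actins were divided. The level of ACTA2, at 12.01 to 15.2 FPKM per 1000 FPKM of ACTB, is therefore uncertain. The same limit applies to the ratio of ACTG1 to ACTB, and its part in that ratio was not tested.

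The summed level of the 3 actins was 1827, 1740.0 and 1316 FPKM in siEHMT2 replicates 1, 2 and 3 and 1519, 1455 and 1789 in siNC, so the groups overlapped. Per 1000 FPKM of actin there were 65.7, 64.4 and 81.55 FPKM of tropomyosin in siEHMT2 and 60.7, 60.7 and 49.5 in siNC. The lowest siEHMT2 value lay above the highest siNC value by less than the SD within either group (9.54 and 6.48).

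The tropomodulins showed no such separation. TMOD3 was at 13.3, 13.8 and 9.295 FPKM in siEHMT2 replicates 1, 2 and 3 and at 12.6, 12.6 and 10.9 in siNC, with a log2 difference of −0.00 ± 0.15 (SE). Its groups overlapped and the sign turned between alternatives (−0.10 to 0.16). As for TPM4, the third library was the lowest in each group, and the deviations of both genes from the group means had a Pearson r of 0.962 over the 6 libraries. TMOD2 ran from 0.2945 to 0.654 FPKM in siEHMT2 and from 0.348 to 0.845 in siNC, and TMOD1 from 0.0555 to 0.151 and from 0.0919 to 0.147, too low to compare.

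Rows named as copies of these genes were examined because ACTB, ACTG1 and TPM3 have many processed copies in the genome. Of 28 such rows, 14 were listed at 0 in all libraries and 3 had a mean of at least 1 FPKM, namely TPM3P9, TPM3P6 and ACTG1P10. TPM3P9 was the highest, at 3.07 FPKM in siEHMT2 and 2.81 in siNC, with overlapping groups. The copies of TPM3 together came to 8.79% of its own level, those of ACTG1 to 0.183%, those of ACTB to 0.0287% and that of TPM4 to 0.0157%. The antisense gene of ACTA2, ACTA2-AS1, was at 0.1425 FPKM in siEHMT2 and 0.0939 in siNC, with overlapping groups.

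The genes that followed TPM4 and TPM2 most closely over the 6 libraries were sought among 7190 other protein-coding genes with a mean of at least 5 FPKM. For TPM4 they were ADRA1D, an adrenergic receptor, PRMT6, an arginine methyltransferase, SDC1, a cell surface proteoglycan, HPS6, a subunit of a complex of lysosome-related organelles, and ZNF48. Their Pearson r of log2(FPKM + 1) with TPM4 ran from 0.992 to 0.999. ADRA1D was at 23.2, 22.65 and 17.2 FPKM in siEHMT2 replicates 1, 2 and 3 and at 9.52, 9.445 and 8.21 in siNC, the same order of libraries within siEHMT2 as for TPM4. For TPM2 the closest genes were FLOT2, a scaffold protein of membrane microdomains, CSNK1E, a casein kinase, THOP1, a peptidase, AMDHD2, an enzyme of amino sugar metabolism, and ARL16, a small GTPase-like protein, with r from 0.993 to 0.997. FLOT2 was at 32.6 ± 0.497 against 24.1 ± 1.22 FPKM (SD, n = 3). TPM2 and TPM4 themselves had an r of 0.911. Their deviations from the group means had an r of −0.736, although siEHMT2 replicate 1 lay above replicate 2 for both. All these values rest on the same 6 libraries and are descriptive.

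The wider actin network was read from 7 lists with 139 other genes, of which 116 were tested with limma across all 12859 genes. At an adjusted p under 0.05, 0 of the 116 were higher and 1 was lower, or 0.862%, against 0.552% of all tested genes (0.342% higher and 0.21% lower). By unadjusted p under 0.05, 16 were higher and 10 lower, or 22.4%, beside 18.8% of all tested genes (1381 higher and 1033 lower). The groups did not overlap for 20 genes higher and 17 lower, or 31.9% of the 116 beside 26.3% of all tested genes. The median log2 difference was 0.01, as it was over all tested genes. With replicate 3 of both groups left out, 23 of the 116 passed, 19 higher and 4 lower, where 14.7% of all tested genes passed (8.09% higher and 6.61% lower).

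The 1 gene that passed was ADD3, a gamma adducin that links spectrin to actin and caps barbed ends. It fell from 13.8 ± 0.303 to 9.17 ± 0.0734 FPKM (SD, n = 3), with 9.12, 9.12 and 9.25 FPKM in siEHMT2 replicates 1, 2 and 3 and 13.7, 14.1 and 13.6 in siNC. Its log2 fold change was −0.54 ± 0.09 (SE, limma adjusted p = 0.0460). The call was lost in 10 of 16 alternatives, with an adjusted p of 0.000706 to 0.255 over all of them. Among these were leaving out siEHMT2 replicate 1 or 2 or any siNC replicate (limma adjusted p 0.0698 to 0.228), while without siEHMT2 replicate 3 it held (0.0364), and the log2 fold change stayed between −0.55 and −0.53 in all 6. Both genes for the alpha subunit of capping protein, which blocks filament growth at the barbed end, did not pass. CAPZA1 was at 31.4 ± 6.03 against 46.3 ± 2.29 FPKM (limma adjusted p = 0.0922) and CAPZA2 at 9.69 ± 1.49 against 12.8 ± 0.246 (0.146). Of the 7 genes of barbed-end capping, 6 had a negative and 1 a positive log2 difference, with a median of −0.23. For 5 of them (71.4%, beside 26.3% of all tested genes) the groups did not overlap, 4 lower and 1 higher. The 3 named genes have transcripts of low GC content, 42.4% for ADD3, 40.6% for CAPZA1 and 39.6% for CAPZA2. After GC correction ADD3 was at −0.46 and did not pass.

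Among actin and tropomodulin relatives, only ACTG2 reached a mean of 1 FPKM. It was at 3.18, 2.09 and 2.60 FPKM in siEHMT2 replicates 1, 2 and 3 and at 1.21, 1.25 and 0.923 in siNC, without overlap. Its log2 difference of 0.76 ± 0.15 (SE) did not pass (limma adjusted p = 0.0634, and 0.00750 to 0.255 over the alternatives). As for ACTA2, the level of ACTG2 is uncertain, because the division of reads that fit several actins is not stated. The muscle actins ACTA1 and ACTC1 were at no more than 0.1235 FPKM in any library, and the leiomodins LMOD1, LMOD2 and LMOD3, which nucleate filaments in muscle, at no more than 0.178.

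In the list of monomer binding, severing and recycling, 11 of 22 tested genes had a positive and 11 a negative difference. The groups did not overlap for 6 higher and 2 lower, or 36.4% beside 26.3% of all tested genes. TMSB10, a thymosin that sequesters actin monomers, was at 1111, 1169 and 1257 FPKM in siEHMT2 replicates 1, 2 and 3 and at 669, 486 and 758.5 in siNC, without overlap (log2 difference 0.91 ± 0.17 (SE), limma adjusted p = 0.0609). It was among the most abundant genes of the network, at or above the level of ACTG1 in all siEHMT2 libraries. The barbed-end capper CAPG (2.29 ± 0.353 against 1.29 ± 0.408 FPKM, limma adjusted p = 0.139) and the cofilin cofactor WDR1 (19.3 ± 1.53 against 15.5 ± 0.289, 0.158) had smaller differences.

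Among nucleation and elongation genes, 13 of 34 were positive and 21 negative, with a median of −0.06. BRK1, a small subunit of the WAVE complex that activates ARP2/3, was at 57.1 ± 6.62 against 39.55 ± 0.970 FPKM (limma adjusted p = 0.0694). WASF1, another WAVE complex subunit, was at 28.98 ± 0.772 against 36.7 ± 1.74 (0.110) and VASP, which elongates barbed ends, at 11.1 ± 0.722 against 8.20 ± 0.729 (0.112). None of the 3 passed, and 2 of the 3 were higher and 1 lower. Over the whole list the groups did not overlap for 3 genes higher and 9 lower, or 35.3% of the 34, beside 26.3% of all tested genes.

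Crosslinking, bundling and side-binding genes had 14 of 22 positive differences and a median of 0.12. FLNA, the main filamin, was at 208.5, 274.5 and 214 FPKM in siEHMT2 replicates 1, 2 and 3 and at 152, 159 and 132 in siNC (log2 difference 0.65 ± 0.14 (SE), limma adjusted p = 0.0713). The membrane linker MSN (92.5 ± 6.63 against 72.4 ± 5.14 FPKM, limma adjusted p = 0.127) and the drebrin gene DBN1 (74.0 ± 3.05 against 60.6 ± 5.08, 0.174) followed. These 3 were the genes of the list whose groups did not overlap, 13.6% of its 22 tested genes beside 26.3% of all tested genes.

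The list of SRF and MRTF factors and targets had 9 positive and 2 negative differences among 11 tested genes, with a median of 0.22. The groups did not overlap for 3 higher and 1 lower, or 36.4% beside 26.3% of all tested genes. SRF was at 20.5, 22.6 and 20.1 FPKM in siEHMT2 replicates 1, 2 and 3 and at 14.75, 13.6 and 15.2 in siNC, without overlap (log2 difference 0.51 ± 0.10 (SE), limma adjusted p = 0.0599). The secreted matrix protein gene CYR61 (3.30 ± 0.371 against 2.08 ± 0.700 FPKM, limma adjusted p = 0.166) and VCL, which encodes vinculin (21.5 ± 2.52 against 17.7 ± 0.690, 0.242), did not pass either. Of the 127 genes of the 7 lists with a RefSeq window, 15 (11.8%) held a CArG box of the exact form, beside 1.6% of all genes with a window. The lists include SRF and MRTF targets by design, so this share was partly set by the choice of genes. SRF, FHL1, FHL2, EGR1, FILIP1L and TES came from that list. Of the 15 genes with a box, FLNA, SRF and ACTG2 were higher and TES lower without overlap of the groups. The groups of the other genes overlapped, and ACTA1, ACTC1, EGR1 and FILIP1L among them had a mean under 1 FPKM. Over all tested genes the groups did not overlap for 26.3%, so nothing about genes with a box is read from this.

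**Figure D3:**
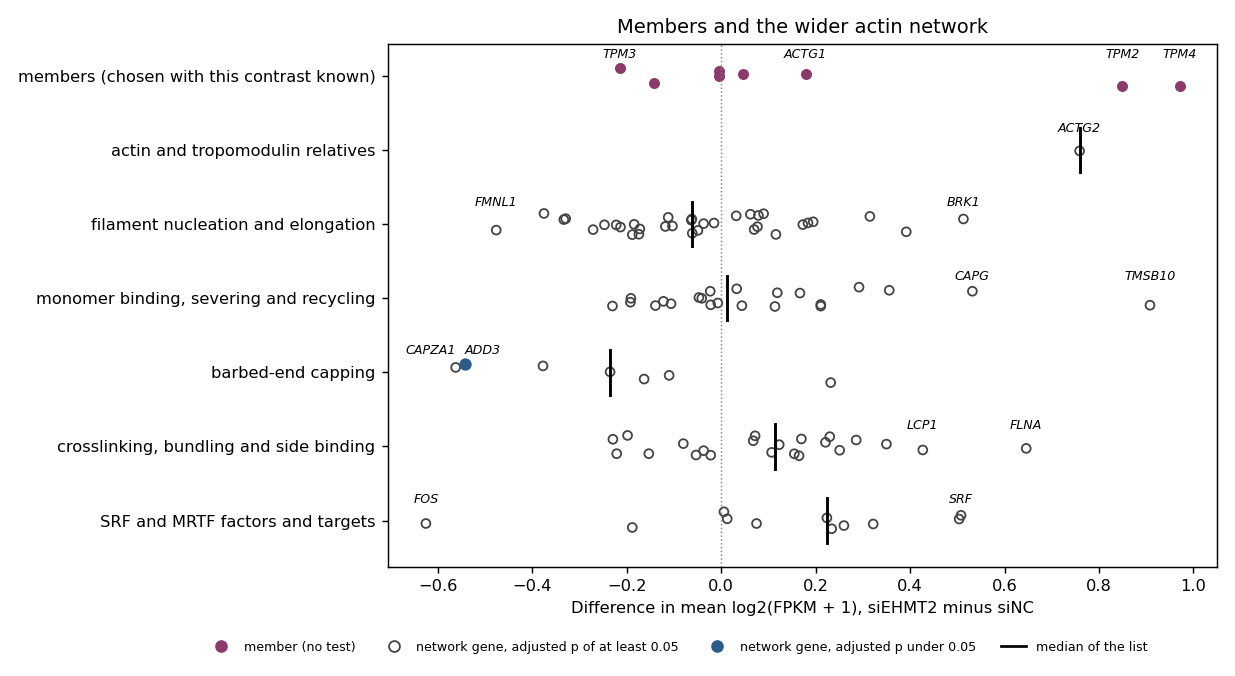
Difference in mean log2(FPKM + 1), siEHMT2 minus siNC, for the 8 tested members (filled purple, no test) and for 97 tested genes of 6 actin network lists (open, adjusted p of at least 0.05, filled blue, under 0.05), with list medians as bars. TPM2 at 0.85 and TPM4 at 0.97 lie at the right edge with TMSB10 at 0.91, and ADD3 at −0.54 is the gene that passed.

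Tropomyosins and ACTA2 are also made in muscle, so 18 muscle markers were read beside them. Of these, 15 had a mean under 1 FPKM and 5 were listed at 0 in all libraries, MYF5 and MYOG among them, while TTN reached 0.00425, DES 0.0181 and MYH11 0.0607 FPKM. The summed level of the list was 25.05 to 31.3 FPKM in siEHMT2 and 19.3 to 26.2 in siNC, most of it from TNNT1 and TNNI3, and these ranges overlapped. The groups did not overlap for 3 of the 18 markers higher and 1 lower, beside 26.3% of all tested genes. Higher were TNNI3, at 6.36 to 7.19 against 4.21 to 6.12 FPKM, SMTN, with means of 4.47 against 3.95 FPKM, and MYOD1. MYOD1, at 0.188 to 0.435 against 0.0817 to 0.109 FPKM, was too low to compare. So was the lower marker, TNNC1, at no more than 0.0804 FPKM. Nothing about muscle genes is read from these counts. The part of these markers in the tropomyosin values was not tested.

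**Figure D4:**
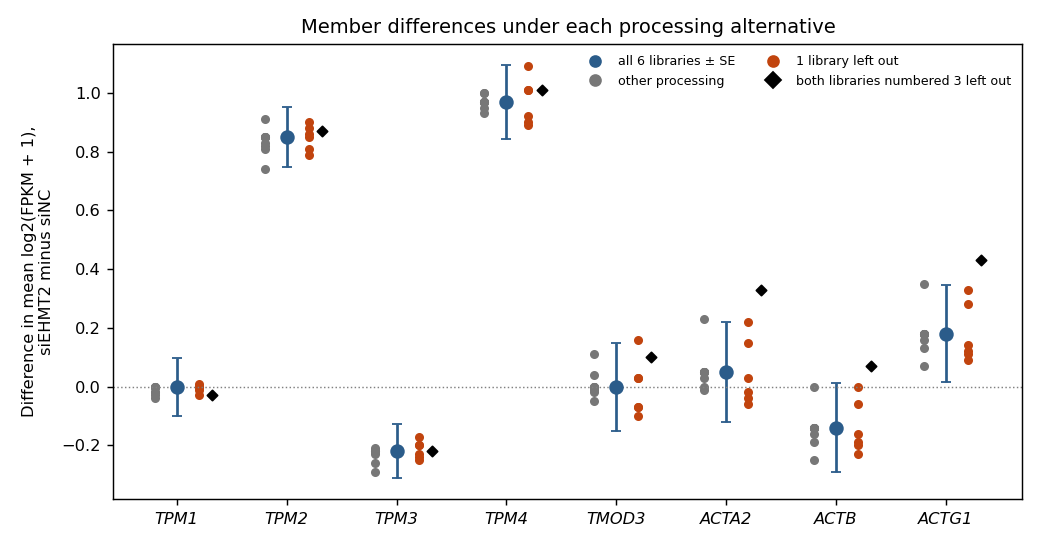
Difference in mean log2(FPKM + 1), siEHMT2 minus siNC, of the 8 tested members with all 6 libraries (blue, ± SE), under other processing (grey), with 1 library left out (red) and without both libraries numbered 3 (black diamonds). TPM2 stays between 0.74 and 0.91 and TPM4 between 0.89 and 1.09, TPM3 stays below 0, and ACTB, ACTA2, TMOD3 and TPM1 lie on both sides of 0.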

How the data were processed

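Total RNA from SK-NEP-1 cells was made into libraries with the NEBNext Ultra RNA kit, per the labels' protocols, and no strand setting is stated. What the authors deposited is a table of FPKM per gene, the unit being named per the file headers. Per the submitters' processing notes, the genome was hg19 and the tools were StringTie 2.2.0, HISAT2 2.2.1, SAMtools 1.4.1 and fastp, without roles; the annotation and the rule for combining transcripts are not given in the sources used here. Titles gave the groups; the running number in the cell line label was ignored.

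Genes averaging at least 1 FPKM (12859 of 55765) entered limma 3.58.1 (R 4.3.3) as log2(FPKM + 1), with a mean-variance trend and no covariate, two-sided, Benjamini-Hochberg adjusted over all tested rows, threshold 0.05. The pseudocount of 1 understates fold changes of low genes. The fit was tested on simulated data. P-values measure the spread between these libraries, which may be technical; an exact permutation of 3 against 3 cannot go below 0.1. Whole reads were not recovered.

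The 10 genes and all lists were chosen with earlier results of these data known. Named were the 10 genes, EHMT2, the 3 genes with the smallest p in each list, and 5 genes most like TPM4 and TPM2; single markers and copies, and further genes labelled in a plot or named in the closing section, were picked by their values. Of the 7 lists, 1 enters the totals but is not reported here. Gene types and median transcript GC (91.2% of tested rows) came from GENCODE release 29. Alternatives were another pseudocount, filters and scalings, a GC correction (loess, span 0.5), no trend, array weights, a replicate block and left-out libraries.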

Additional observations from a re-analysis of the deposited data

How the results depend on the processing

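TPM4 moved by less than its spread between replicates in all 16 alternatives. TPM2 did so in 15 and was 0.74 after GC correction. TPM3 was −0.29 with array weights, and TPM1 was −0.04 with libraries rescaled to the same sum and −0.03 after GC correction. With replicate 3 of both groups left out, tried once the values were known, ACTA2 was at 0.33, ACTB at 0.07 and ACTG1 at 0.43. Over all tested genes 71 were called, 44 higher and 27 lower. The count was 31 with libraries rescaled to the same sum (10 higher, 21 lower), 99 after GC correction (42 higher, 57 lower), 30 without trend, 134 with a mean of at least 5 FPKM, 3797 with array weights, whose estimation did not converge, 1890 without both libraries numbered 3, and 0 to 172 with 1 library left out (1526 to 2708 at an unadjusted p under 0.05), the highest without siEHMT2 replicate 3. Actin network genes called numbered 4, 49 and 23 with the filter at 5 FPKM, with array weights and without both libraries numbered 3. They numbered 0 to 1 with 1 library left out (18 to 34 at an unadjusted p under 0.05) and 0 with rescaling to the same sum, GC correction or no trend, where 23 to 27 had an unadjusted p under 0.05. Without the filter limma called 0 of 32326 genes and 0 network genes (3641 and 26 at an unadjusted p under 0.05). The causes were not tested. With the replicate number as a block limma called 0 genes and 0 network genes (1845 and 20 at an unadjusted p under 0.05). Deviations of same-numbered libraries correlated at −0.350, 0.087 and −0.393 for numbers 1, 2 and 3. Only siEHMT2 replicate 2 correlated best with its own number. No pairing by number was seen, but so few libraries, with siEHMT2 replicate 3 set apart by GC content, cannot exclude one. Summing rows of 1 symbol was not run because no symbol occurs in several rows. Depth is unknown, and TMOD1 and TMOD2 are too low to compare.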

Other observations

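With replicate 3 of both groups left out, which leaves 2 libraries in each group and was tried once the values were known, limma called 23 of the 116 tested actin network genes (19.8%) against 14.7% of all tested genes. Of these, 19 were higher and 4 lower, where 8.09% and 6.61% of all tested genes were. In the list of SRF and MRTF factors and targets 6 of 11 genes were called: SRF, CYR61, CTGF, FHL2 and ZYX higher and FOS, an immediate early transcription factor gene, lower. In the list of crosslinking, bundling and side-binding genes FLNA, DBN1, CNN2, LIMA1 and LCP1 were higher and RDX lower. Of the 34 nucleation and elongation genes 1 was higher and 1 lower (5.88%), and of the 7 barbed-end capping genes 1 was lower (14.3%). ACTG2, the only tested gene among actin and tropomodulin relatives, was higher. In the list of monomer binding, severing and recycling 4 of 22 were higher and 0 lower (18.2%). Of the 3 tested thymosin genes, TMSB10 (log2 fold change 1.00 ± 0.17 (SE), limma adjusted p = 0.0177) and TMSB4X (0.74 ± 0.13 (SE), limma adjusted p = 0.0203) were higher and TMSB15A was not called. With all 6 libraries ADD3 alone of the 23 passed, and the part of the libraries numbered 3 was not tested further.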
